A study of Homo sapiens with 4 samples.

Results

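The genes described here encode the glycolytic enzymes that carry glucose from its first phosphorylation to lactate, taken as the 10 genes HK2, GPI, PFKP, ALDOA, TPI1, GAPDH, PGK1, PGAM1, ENO1 and LDHA. They were chosen by name, and all 10 were found by Ensembl gene ID among the 20263 genes of the count table. Pyruvate kinase is not among the 10, and its gene PKM is described below with the other genes of the pathway. RNA was sequenced from MDA-MB-231, an established human line of triple-negative breast cancer, after 24 h with RB-1 (2 libraries) or with its solvent DMSO (2 libraries). The series title describes RB-1 as derived from ribociclib, a drug that blocks CDK4 and CDK6. The labels give no dose. Nothing in them tells whether replicates were grown as separate cultures, and p-values here therefore cover only the variation among these 4 samples, possibly technical. Both groups are the same cell line in medium with serum.

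Glycolysis splits a glucose molecule into pyruvate and yields ATP without oxygen. Hexokinase traps glucose in the cell, GPI and phosphofructokinase prepare it for cleavage, and aldolase and TPI1 deliver the triose phosphate on which GAPDH, PGK1, PGAM1 and enolase act. Pyruvate kinase then forms pyruvate, and lactate dehydrogenase turns pyruvate into lactate while it regenerates the NAD+ that GAPDH needs. Many tumour cells run this route at a high rate even with oxygen present, and hypoxia-inducible factor, a dimer of HIF1A or EPAS1 with ARNT, is a known activator of several of these genes. It recognises the core letters ACGTG or GCGTG.

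Promoter windows of 4 members are shown because they set the members with the largest rises, PGK1 and ENO1, beside GAPDH and LDHA, which did not pass the test. The sequences are from RefSeq (GRCh38.p14), run 5′ to 3′ on the gene's strand from 250 bases before to 50 bases after an annotated start, and carry in capitals every match to ACGTG or GCGTG on either strand, so that CACGTG shows 2 overlapping matches. PGK1 is at chrX:78103998-78104297 on the plus strand, ENO1 at chr1:8878637-8878936 on the minus strand, GAPDH at chr12:6535014-6535313 on the plus strand and LDHA at chr11:18394313-18394612 on the plus strand.
PGK1: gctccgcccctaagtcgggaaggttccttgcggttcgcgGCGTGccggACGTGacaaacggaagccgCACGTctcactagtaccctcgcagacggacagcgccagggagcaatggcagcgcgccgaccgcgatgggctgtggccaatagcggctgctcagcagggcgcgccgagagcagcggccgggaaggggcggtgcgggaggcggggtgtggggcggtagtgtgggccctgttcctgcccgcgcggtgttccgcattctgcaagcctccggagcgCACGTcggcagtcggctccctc
ENO1: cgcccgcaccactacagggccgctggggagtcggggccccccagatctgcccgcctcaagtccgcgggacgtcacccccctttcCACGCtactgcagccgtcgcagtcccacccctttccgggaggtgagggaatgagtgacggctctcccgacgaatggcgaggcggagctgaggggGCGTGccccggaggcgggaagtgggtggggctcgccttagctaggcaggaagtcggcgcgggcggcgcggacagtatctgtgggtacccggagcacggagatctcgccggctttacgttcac
GAPDH: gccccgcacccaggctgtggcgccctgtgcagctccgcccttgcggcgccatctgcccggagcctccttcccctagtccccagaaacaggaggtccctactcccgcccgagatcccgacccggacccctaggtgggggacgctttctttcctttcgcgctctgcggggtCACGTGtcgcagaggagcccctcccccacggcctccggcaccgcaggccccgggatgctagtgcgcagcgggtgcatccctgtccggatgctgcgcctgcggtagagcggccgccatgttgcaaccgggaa
LDHA: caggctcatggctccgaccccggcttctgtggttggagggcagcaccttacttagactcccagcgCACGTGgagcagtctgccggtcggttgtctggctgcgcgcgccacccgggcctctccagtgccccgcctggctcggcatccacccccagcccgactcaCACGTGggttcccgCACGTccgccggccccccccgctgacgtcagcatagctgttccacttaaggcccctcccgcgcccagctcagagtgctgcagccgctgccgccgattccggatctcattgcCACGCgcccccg
The PGK1 window held 4 matches, ENO1 2, GAPDH 2 and this LDHA window 6. LDHA has another annotated start whose window held 1 match. Across the annotated starts of the 10 members, 14 of 18 windows (77.8%) held at least 1 match, against 59.7% of the 15854 windows of tested genes and 48.4% of all 35116 windows. The E-box CACGTG, whose letters contain the core, stood in 4 of the 18 windows (22.2%), against 9.1% of the windows of tested genes. Whether the number of matches bears on the change of a transcript was not tested. A match is a description of letters, not of binding, and which start these cells use was not measured.

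After RB-1, 4 of the 10 enzyme transcripts rose, none fell (by edgeR, DESeq2 or limma-voom) and 6 did not pass the test. PGK1 was 3.63-fold higher, ENO1 2.18-fold, PGAM1 1.82-fold and TPI1 1.80-fold. Among all 13612 genes tested, 12.5% were called higher and 15.8% lower. The call was made with the quasi-likelihood test of edgeR, where the p-value adjusted by Benjamini-Hochberg over all genes tested lay under 0.05. At an unadjusted p under 0.05 there were 5 members, the other being ALDOA, and all 5 were higher. Over all genes tested that share was 41.3% in either direction and 19.6% higher. The median log2 fold change was 0.49 over the 10 members and 0.012 over all genes tested. In 8 of the 10 members both RB-1 libraries lay above both DMSO libraries, a pattern that 35.3% of all tested genes showed, and 34.3% showed the reverse, which no member did. GAPDH and LDHA were the exceptions, with overlapping groups.

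**Figure D1:**
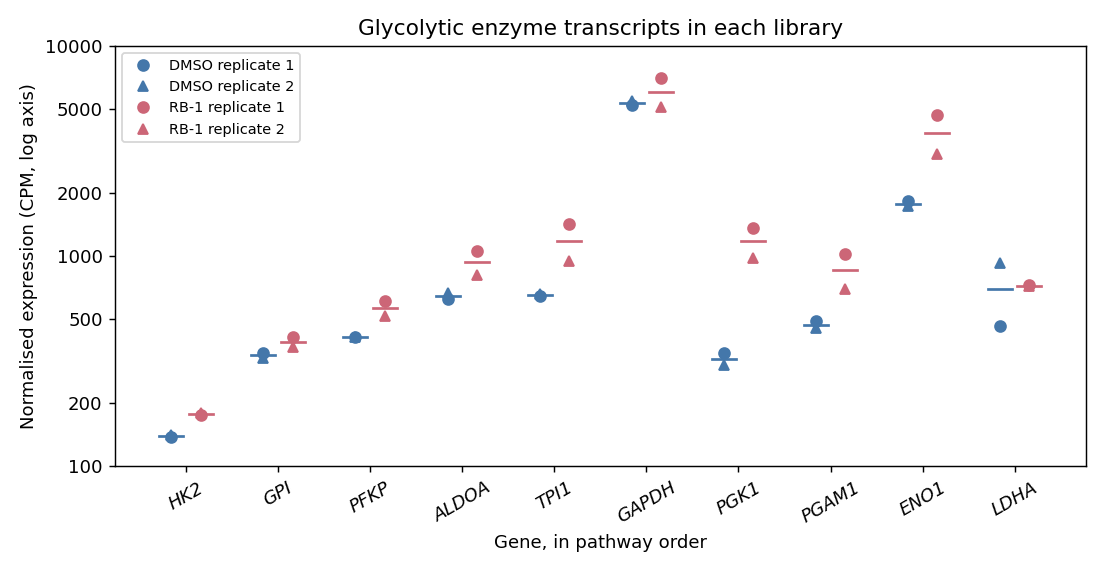
Normalised expression of the 10 enzyme genes in CPM (log axis), with genes in pathway order, 1 symbol per library and a line at each group mean. PGK1 shows the widest separation, 345 and 302 CPM in DMSO against 1365 and 984 in RB-1, and LDHA shows DMSO libraries at 466 and 922 on either side of the RB-1 libraries.

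The libraries held between 34122874 and 37754168 counts, and no member had fewer than 4604 counts in any library. Counting error is therefore small beside the spread between libraries that the edgeR model estimated. Transcripts of the 13 mitochondrially encoded genes took 8.68% and 21.7% of counts in DMSO replicates 1 and 2 and 4.25% and 6.46% in RB-1 replicates 1 and 2. Cell identity was checked on marker genes: the mesenchymal markers VIM, CD44, AXL, ZEB1 and MSN were detected in every library, VIM at 3565 to 5423 CPM, while of the 6 luminal markers ESR1 and CDH1 had at most 23 and 2 counts. The other luminal markers were detected at low levels: EPCAM at 9.46 to 13.5 CPM, GATA3 at 9.69 and 21.9 CPM in DMSO and 2.25 and 3.18 in RB-1, FOXA1 at 7.31 and 7.33 against 0.610 and 0.694, and PGR at 1.46 and 1.77 against 0.318 and 0.534. GATA3, FOXA1 and PGR were called lower after RB-1, and their part in the results below was not tested. ZEB1 was lower after RB-1, at 62.6 and 64.1 CPM in DMSO and 13.6 and 14.2 in RB-1. In bulk RNA, fewer cells with a transcript and less of it per cell cannot be told apart. Values below are CPM (counts scaled to a common library size, here with TMM factors), given per library or as mean ± SD with n = 2 libraries per group, and log2 fold changes from all 4 libraries without correction mostly stand with their standard error.

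The members of the first steps, HK2, GPI, PFKP and ALDOA, stayed below the threshold in the fit without correction. HK2, the inducible hexokinase that binds mitochondria, stood at 137 and 141 CPM in DMSO and 175 and 179 in RB-1 (log2 fold change 0.35 ± 0.22, adjusted p = 0.262 by edgeR). GPI, which turns glucose 6-phosphate into fructose 6-phosphate, stood at 345 and 329 CPM in DMSO and 412 and 370 in RB-1 (0.21 ± 0.22, adjusted p = 0.489 by edgeR). PFKP, the platelet-type phosphofructokinase that commits the sugar to the pathway, stood at 413 and 410 CPM in DMSO and 611 and 519 in RB-1 (0.46 ± 0.22, adjusted p = 0.146 by edgeR). For these 3 genes the groups did not overlap, but the differences were small against the spread that the model estimated. ALDOA, the aldolase that cleaves the phosphorylated sugar, stood at 626 and 669 CPM in DMSO and 1054 and 816 in RB-1 (0.53 ± 0.23, adjusted p = 0.111 by edgeR). Its value is uncertain, since 42.3% of its annotated exon bases also belong to a joined gene on the same strand that the count table does not list.

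TPI1, which interconverts the triose phosphates, rose from 655 ± 8.02 to 1182 ± 332 CPM (0.85 ± 0.25 SE, adjusted p = 0.0299 by edgeR). Its RB-1 libraries were themselves apart, at 1416 and 947 CPM, and both were above the DMSO libraries at 649 and 660. GAPDH, the dehydrogenase of the pathway and a common reference gene in RT-PCR, stood at 5223 and 5447 CPM in DMSO and 7018 and 5104 in RB-1 (0.18 ± 0.28, adjusted p = 0.648 by edgeR). The RB-1 libraries thus lay on either side of the DMSO libraries. GENCODE lists 62 numbered GAPDH pseudogenes, none of them in the count table and the assignment of reads shared with such copies is not described in the labels. The same holds for PGAM1 with 13 and LDHA with 6 pseudogenes, and for the other members with at most 4.

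PGK1, the kinase that makes the first ATP of the pathway, rose from 324 ± 30.1 to 1175 ± 269 CPM (1.86 ± 0.25 SE, adjusted p = 0.000888 by edgeR). The lower of the RB-1 libraries, at 984 CPM, was above the higher of the DMSO libraries, at 345. PGAM1, the mutase that moves the phosphate group, stood at 490 and 453 CPM in DMSO and 1021 and 697 in RB-1 (0.86 ± 0.25, adjusted p = 0.0261 by edgeR). ENO1, the main enolase of most tissues, stood at 1821 and 1734 CPM in DMSO and 4687 and 3052 in RB-1 (1.12 ± 0.28, adjusted p = 0.0146 by edgeR). LDHA, the lactate dehydrogenase subunit that favours lactate formation, stood at 466 and 922 CPM in DMSO and at 725 and 724 in RB-1 (0.06 ± 0.31, adjusted p = 0.898 by edgeR). Its DMSO libraries differed from each other more than the group means did, so no change was detectable with these libraries. The fold of LDHA depended on which DMSO library was left out: it was -0.35 (adjusted p = 0.451) without DMSO replicate 1 and 0.66 (adjusted p = 0.199) without DMSO replicate 2, by edgeR.

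RB-1 replicate 1 was above RB-1 replicate 2 in 9 of the 10 members, HK2 being the exception, while DMSO replicate 1 was above DMSO replicate 2 in 5. Calls were also made with 1 library left out. Such a fit has a group with a single library, so a lost call alone does not show a changed fold. PGK1 alone remained called when either DMSO library or RB-1 replicate 1 was left out (its log2 fold change was then 1.96 with DMSO replicate 1 left out, 1.79 with DMSO replicate 2 and 1.61 with RB-1 replicate 1 left out), and all 4 were called without RB-1 replicate 2. Over all genes tested, higher calls also became fewer when either DMSO library or RB-1 replicate 1 was dropped. With all libraries the log2 fold changes of ENO1, PGAM1 and TPI1 were 1.12, 0.86 and 0.85. Dropping DMSO replicate 1 gave 1.16, 0.92 and 0.84, and dropping DMSO replicate 2 gave 1.11, 0.83 and 0.89, so these folds changed little. The RB-1 libraries mattered more: the folds were 0.79, 0.57 and 0.54 if replicate 1 was dropped. They were 1.40, 1.12 and 1.11 if RB-1 replicate 2 was dropped.

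Fold changes in these libraries followed transcript length. Across the 13596 tested genes with a length, Spearman's rho between the length of the main annotated transcript and the log2 fold change was -0.374, and between length and the difference of RB-1 replicate 1 from replicate 2 it was -0.419; genes are not independent replicates, and no p is given. The median log2 fold change was 0.46 in the quartile of genes with the shortest transcripts, of which 22.8% were called higher, and -0.46 in the quartile with the longest, of which 5.44% were. The main transcripts of ALDOA, TPI1, GAPDH, PGAM1 and ENO1 are in the shortest quartile (1231 to 1875 bases), and those of HK2 (5772 bases) and PGK1 (4887 bases) in the longest.

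**Figure D2:**
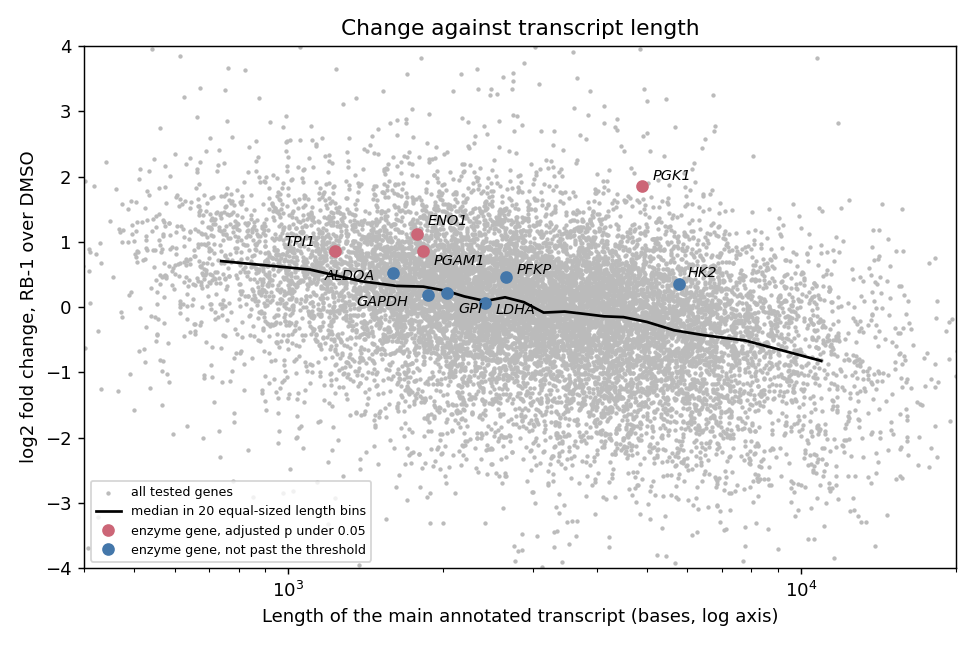
Log2 fold change of RB-1 over DMSO against the length of the main annotated transcript (log axis) for the tested genes, with the 10 enzyme genes as large points and a line through the medians of 20 length bins; 152 genes lie outside the axes. The line falls with length, PGK1 at 1.86 and HK2 at 0.35 lie above it, and GAPDH at 0.18 lies close to it.

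When each library was corrected for length and GC content, the picture of the members changed. PGK1 was at 2.35 ± 0.28 (adjusted p = 0.00189), ENO1 at 0.74 ± 0.22 (adjusted p = 0.0343) and HK2 at 0.56 ± 0.17 (adjusted p = 0.0394), so these 3 were called higher, where 15.1% of all genes were called higher and 16.4% lower, by edgeR. TPI1 (0.28, adjusted p = 0.262) and PGAM1 (0.51, adjusted p = 0.0786) no longer passed. ALDOA was at 0.01, GAPDH at -0.25 (adjusted p = 0.396) and GPI at -0.13 (adjusted p = 0.608). PFKP was at 0.20 and LDHA at 0.15, both not called. The median over the members was 0.24. PGK1 and ENO1 were the members called both with and without the correction. The correction takes the annotated length of 1 transcript per gene, and which isoforms these cells made is not known from counts per gene.

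**Figure D3:**
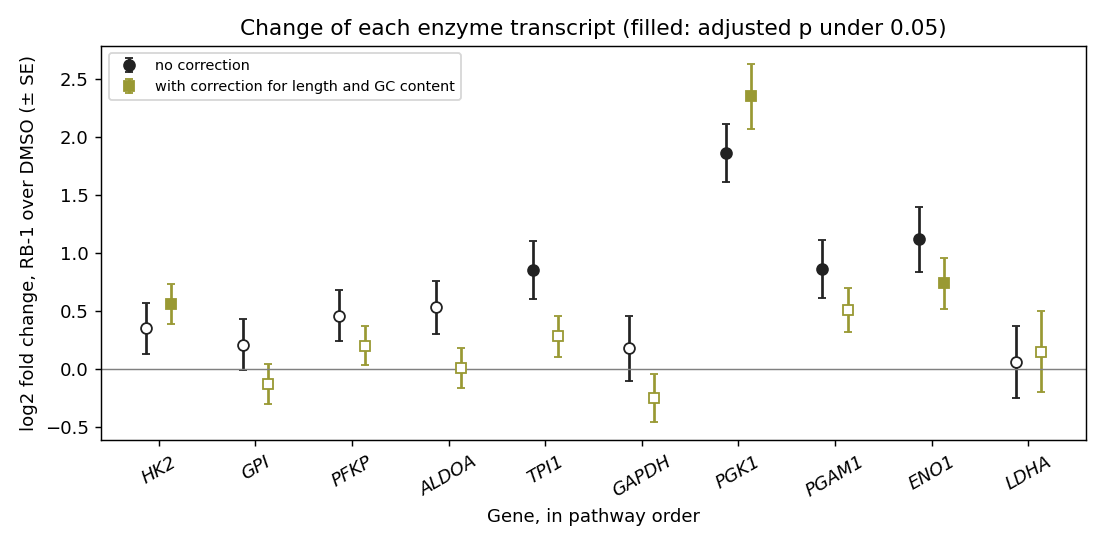
Log2 fold change of RB-1 over DMSO with its standard error for each enzyme gene, without and with the correction for transcript length and GC content; filled symbols mark an adjusted p under 0.05. PGK1 is called in both (1.86 and 2.35), HK2 only with the correction (0.56), and TPI1 and PGAM1 only without it (0.85 and 0.86).

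Levels were compared between enzymes as CPM per kilobase of the main annotated transcript. In DMSO the order ran from GAPDH (2846 ± 84.4) over ENO1 (998 ± 34.4), TPI1 (532 ± 6.52), ALDOA (404 ± 19.0), LDHA (287 ± 134), PGAM1 (258 ± 14.4), GPI (165 ± 5.38), PFKP (155 ± 0.727) and PGK1 (66.2 ± 6.16) to HK2 (24.1 ± 0.377). LDHA and PGAM1 could not be placed in order, since the LDHA libraries lay on either side of both PGAM1 libraries. In RB-1 PGK1 reached 240 ± 55.1, where it overlapped PFKP (213 ± 24.5), while HK2 stayed last (30.6 ± 0.417). GAPDH (3232 ± 722), ENO1 (2172 ± 649) and TPI1 (960 ± 269) were again the most abundant. The 10 transcripts together made up 1.05% and 0.961% of all counts in DMSO and 1.93% and 1.47% in RB-1. Without the mitochondrially encoded genes these shares were 1.16% and 1.23% in DMSO and 2.02% and 1.57% in RB-1, so the RB-1 libraries were above the DMSO libraries either way. With 2 libraries per group the smallest two-sided p of an exact permutation test is 0.333, so none was made on these shares.

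GAPDH and PGK1 often serve as reference genes, which makes their ratio to others of interest. The ratio of GAPDH to ACTB counts was 1.31 and 1.58 in DMSO and 1.65 and 1.39 in RB-1, with overlapping groups. The ratio of PGK1 to ACTB was 0.0868 and 0.0879 in DMSO and 0.320 and 0.269 in RB-1. GAPDH counts were 15.1 and 18.0 times those of PGK1 in DMSO, and 5.14 and 5.19 times in RB-1. These ratios within a library do not depend on the scaling between libraries. Of 14 other genes commonly used as references, 4 rose, HPRT1 among them, and 2 fell (TFRC and POLR2A), with a median log2 fold change of 0.27. HPRT1, of purine salvage, was 2.10-fold higher, POLR2A, the large subunit of RNA polymerase II, was 3.71-fold lower and TFRC, the transferrin receptor, 3.52-fold lower, whereas ACTB was at 0.10 ± 0.26 (adjusted p = 0.806 by edgeR). None of the 4 rises was called without DMSO replicate 2 or without RB-1 replicate 1, and 1 was without DMSO replicate 1. TFRC and POLR2A lost their calls without RB-1 replicate 1 (log2 fold changes -1.85 and -1.91). TFRC was at -1.20 without DMSO replicate 1 and at -1.21 with the length and GC correction, against -1.81 ± 0.33, and POLR2A at -1.27 without DMSO replicate 2, against -1.89 ± 0.32.

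The isozymes that share a step with the members were examined next, together with PKM, whose step has no member. Of 59 other genes of the pathway, its transporters, regulators and the entry of pyruvate into mitochondria, 46 passed the filter on low counts, and the remaining 13 had at most 16 counts in any library. For this list and the smaller ones below, the shares over all genes tested were 12.5% higher and 15.8% lower. Of the 46, 11 rose, 5 fell and 30 did not pass, with a median log2 fold change of 0.31. Leaving out DMSO replicate 1 gave 6 higher genes, DMSO replicate 2 gave 3, and RB-1 replicate 1 gave 5. Among the isozymes, HK1, the widely expressed hexokinase, stood at 320 and 360 CPM in DMSO and 403 and 402 in RB-1 (0.24 ± 0.22, adjusted p = 0.433 by edgeR). Per length, HK2 made up 21.0% and 19.5% of hexokinase transcripts in DMSO and 21.2% and 21.6% in RB-1, next to HK1 and a little HKDC1. Of the other phosphofructokinases, PFKL, the liver type, was 1.73-fold higher (0.79 ± 0.24, adjusted p = 0.0333 by edgeR) and PFKM, the muscle type, 1.90-fold higher (0.92 ± 0.30, adjusted p = 0.0445 by edgeR). Neither passed with the length and GC correction (adjusted p = 0.0661 and 0.0559 by edgeR) or without RB-1 replicate 1 (log2 fold changes 0.58 and 0.79). The call of PFKL was also lost without DMSO replicate 1 (0.82) or DMSO replicate 2 (0.79). That of PFKM was lost without DMSO replicate 2 (0.61) or RB-1 replicate 2 (1.06). PFKP remained the main form, with 72.7% and 76.2% of the 3 transcripts per length in DMSO and 68.2% and 70.2% in RB-1.

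ENO2, the neuronal enolase, was 2.36-fold higher, from 99.8 and 91.3 CPM in DMSO to 227 and 224 in RB-1 (1.24 ± 0.23, adjusted p = 0.00396 by edgeR). It made up 3.85% and 3.70% of enolase transcripts per length in DMSO and 3.42% and 5.09% in RB-1, so ENO1 supplied at least 94.3% in every library. ALDOC, the brain aldolase, was scarce, at 6.68 and 7.20 CPM in DMSO and 4.74 and 5.18 in RB-1 (-0.48 ± 0.32, adjusted p = 0.284 by edgeR). PKM, the pyruvate kinase of most tissues, stood at 1927 and 2459 CPM in DMSO and 1770 and 1504 in RB-1 (-0.42 ± 0.25, adjusted p = 0.226 by edgeR). With the length and GC correction it was called lower (-0.67 ± 0.19, adjusted p = 0.0320 by edgeR). The ratio of PGK1 to PKM counts was 0.179 and 0.123 in DMSO and 0.771 and 0.655 in RB-1, and that of ENO1 to PKM was 0.945 and 0.705 against 2.65 and 2.03.

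LDHB, the lactate dehydrogenase subunit that favours the return of lactate to pyruvate, fell from 552 and 369 CPM in DMSO to 168 and 179 in RB-1 (-1.41 ± 0.26, adjusted p = 0.00378 by edgeR). It is uncertain, as 33.4% of its exon bases are shared with a joined gene on the same strand that the count table does not list. LDHA made up 31.2% and 57.4% of the LDHA and LDHB transcripts per length in DMSO and 69.9% and 68.5% in RB-1. The share was higher in both RB-1 libraries, although LDHA itself did not pass and its DMSO libraries were far apart. LDHD, which oxidises D-lactate, was scarce and rose from 0.831 and 0.610 CPM to 2.76 and 2.19 (1.77 ± 0.45, adjusted p = 0.0165 by edgeR). Its call was lost without DMSO replicate 2 (log2 fold change 1.59) or RB-1 replicate 1 (1.6).

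**Figure D4:**
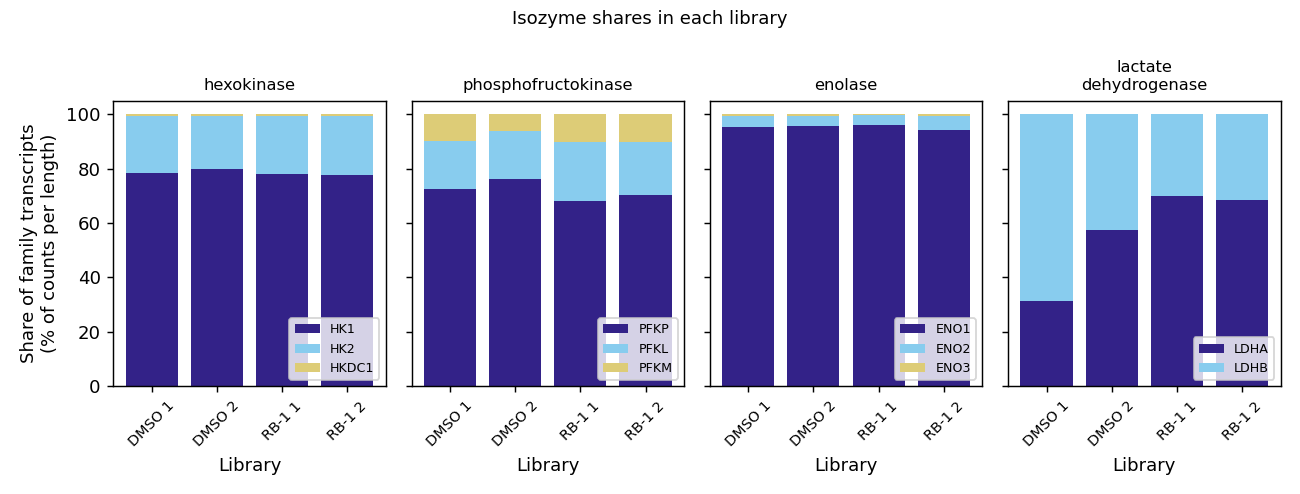
Share of each isozyme in its family in each library, in percent of counts per length of the main annotated transcript, as stacked bars. Hexokinase, phosphofructokinase and enolase keep the same leading form in all 4 libraries, while LDHA goes from 31.2% and 57.4% in DMSO to 69.9% and 68.5% in RB-1.

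Genes that set the flux or run the reverse steps moved in both directions, with 3 higher and 2 lower of 9 tested. PFKFB4, one of the enzymes that set the level of the activator fructose 2,6-bisphosphate, was 2.76-fold higher (1.46 ± 0.26, adjusted p = 0.00353 by edgeR). It stood at 39.8 and 43.3 CPM in DMSO and 129 and 100.1 in RB-1. TIGAR, which breaks down that activator, fell from 17.6 and 15.6 to 5.80 and 3.79 CPM (-1.79 ± 0.34, adjusted p = 0.00452 by edgeR); it is uncertain because 42.6% of its exon bases lie in a joined gene as well. PCK2, the mitochondrial enzyme that forms phosphoenolpyruvate, was 2.87-fold higher (1.52 ± 0.28) and PGM1, which links glycogen to glucose 6-phosphate, 1.85-fold higher (0.89 ± 0.24). The other gene that fell, named after its value was seen, was PGM2 (-0.85 ± 0.29, adjusted p = 0.0489 by edgeR), and its call was lost in 8 of the alternatives tried, upper-quartile scaling and library totals among them. PCK2 was not called without DMSO replicate 2 (adjusted p = 0.0630), nor PGM1 without DMSO replicate 1 (adjusted p = 0.0977), without DMSO replicate 2 (0.113) or with RB-1 replicate 1 left out (0.0814).

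Of 11 transporter genes tested, 3 rose and 1 fell. SLC16A3, the lactate exporter MCT4, was 3.06-fold higher, at 151 and 136 CPM in DMSO and 530 and 349 in RB-1 (1.61 ± 0.26, adjusted p = 0.00219 by edgeR). SLC2A1, the glucose transporter GLUT1, was 1.64-fold higher, at 165 and 188 CPM in DMSO and 313 and 265 in RB-1 (0.71 ± 0.23, adjusted p = 0.0407 by edgeR). SLC16A7, the monocarboxylate transporter MCT2, fell from 13.7 and 20.5 CPM to 1.54 and 2.91 (-2.94 ± 0.41, adjusted p = 0.00102 by edgeR). MPC2, a subunit of the mitochondrial pyruvate carrier, was at 1.07 ± 0.30 (adjusted p = 0.0239 by edgeR), with 22.5% of its exon bases on the opposite strand of DCAF6, so it is uncertain. SLC16A3 and SLC16A7 were called in every alternative tried, whereas SLC2A1 was lost without either DMSO library (adjusted p = 0.208 without replicate 1 and 0.125 without replicate 2) or RB-1 replicate 1 (0.157), and MPC2 without either DMSO library (0.0815 and 0.207), without RB-1 replicate 1 (0.0974) and with the length and GC correction (0.0912).

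At the entry of pyruvate into mitochondria 1 of 12 genes rose and 1 fell, where 12.5% of all genes tested were called higher and 15.8% lower. PDK1, the kinase that switches pyruvate dehydrogenase off, was 2.27-fold higher, at 36.4 and 42.9 CPM in DMSO and 81.6 and 98.5 in RB-1 (1.18 ± 0.27, adjusted p = 0.00953 by edgeR). DLD, the dihydrolipoamide dehydrogenase subunit shared by several complexes, fell from 56.8 and 39.0 CPM to 19.2 and 19.3 (-1.31 ± 0.30, adjusted p = 0.0100 by edgeR). With the length and GC correction PDK1 was at 2.36 ± 0.25 (adjusted p = 0.00134 by edgeR). PDK1 lost its call without DMSO replicate 1 (log2 fold change 1.07) or DMSO replicate 2 (1.33), and DLD without DMSO replicate 1 (-1.02). In the TCA cycle, 1 of 16 genes rose and 2 fell, with a median log2 fold change of 0.12. SUCLA2, a succinyl-CoA ligase subunit, was at -1.40 ± 0.34, OGDH, of the oxoglutarate dehydrogenase complex, at -0.79 ± 0.24, and SDHD, a succinate dehydrogenase subunit, at 1.44 ± 0.35. Each of the 3 lost its call when some single library was left out: SUCLA2 without DMSO replicate 1 or RB-1 replicate 1, and OGDH and SDHD without DMSO replicate 2 or RB-1 replicate 1, OGDH also without RB-1 replicate 2, under upper-quartile scaling and under library totals.

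**Figure D5:**
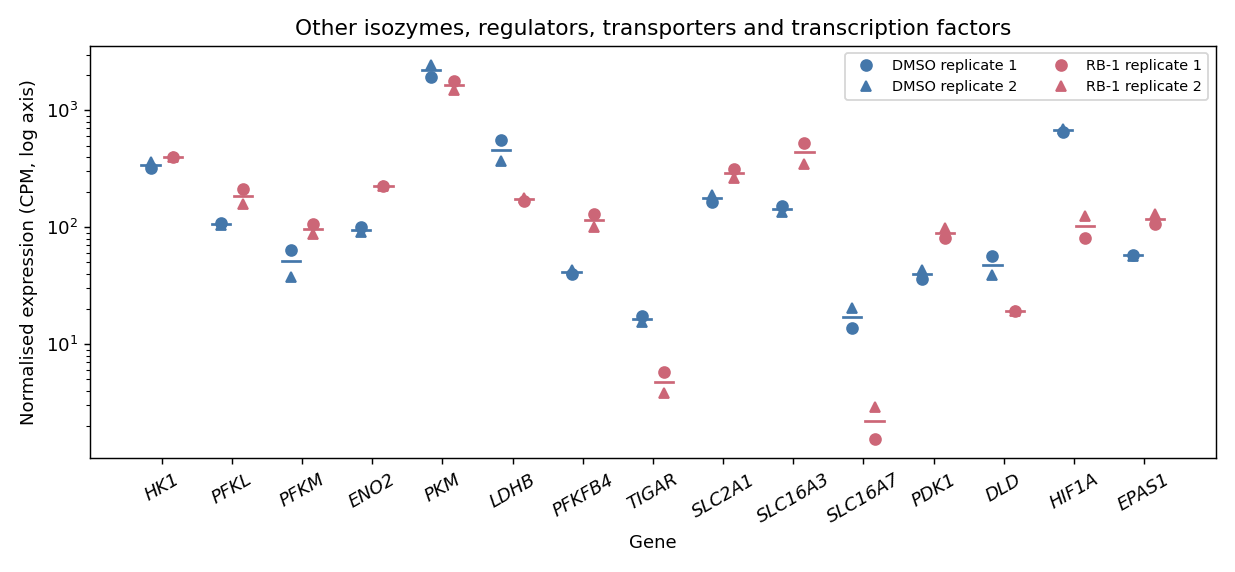
Normalised expression (CPM, log axis) of isozymes, regulators, transporters and transcription factors of the pathway, with 1 symbol per library and a line at each group mean. SLC16A3 and PFKFB4 are higher in both RB-1 libraries, LDHB, TIGAR, SLC16A7 and HIF1A are lower in both, and HK1 and PKM did not pass the test.

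Of 9 regulators of transcription in the pathway, 2 rose and 1 fell, against 12.5% higher and 15.8% lower over all genes tested. HIF1A, the oxygen-regulated subunit of hypoxia-inducible factor, fell from 658 and 697 CPM in DMSO to 81.2 and 124 in RB-1 (-2.72 ± 0.27, adjusted p = 0.000251 by edgeR). Its relative EPAS1, which encodes HIF-2 alpha, was 2.06-fold higher (1.04 ± 0.25, adjusted p = 0.0123 by edgeR). EPAS1 stood at 57.7 and 57.2 CPM in DMSO and 106 and 130 in RB-1. Its call was lost without DMSO replicate 1 or DMSO replicate 2, where its log2 fold change was 1.05 and 1.06. The other that rose, named after its value was seen, was EGLN1, an oxygen-dependent hydroxylase of the HIF subunits (1.16 ± 0.24, adjusted p = 0.00703 by edgeR). EGLN1 was at 1.83 ± 0.24 with the length and GC correction, and at 1.05 without DMSO replicate 2, where its call was lost. ARNT, the shared partner, was at 0.05 ± 0.27 (adjusted p = 0.906 by edgeR). MYC, another known activator of glycolytic genes, stood at 8.11 and 29.3 CPM in DMSO and 31.9 and 31.3 in RB-1 (0.76 ± 0.54, adjusted p = 0.333 by edgeR), with DMSO libraries far apart; it passed without DMSO replicate 2 (1.98, adjusted p = 0.0229). The HIF1A transcript thus moved opposite to PGK1 and ENO1. The counts measure transcripts and not the protein, whose level is known to be set largely by its breakdown.

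Genes whose pattern over the 4 libraries lay nearest to the mean of the members were FAM234A, SUPT4H1, TMBIM1, TNFRSF10A and EPHX4, by Euclidean distance of centred log2 CPM (0.0224 to 0.0424). The mean centred profile of the members was -0.36 and -0.28 in DMSO and 0.49 and 0.15 in RB-1. None of the 5 genes passed the test themselves, with log2 fold changes of 0.64 to 0.68.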

How the data were processed

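RNA of 4 libraries, 2 per group, had been prepared with an mRNA library kit, per the labels' protocols. The authors deposited unnormalised counts by gene, 1 column per library with no pooling. For the aligner, the counting tool and strand, the sources used here give nothing. The submitters' processing notes list mouse genome builds, whereas the IDs are human; which build underlies the counts is therefore unsettled; the coordinates printed are those of the RefSeq promoter windows alone. Symbols matched 20148 of 20263 IDs. Members and gene lists were chosen with earlier results of these data known. All 10 members were named, as were, in each role of the other pathway genes, the called genes, at most the 4 with the smallest p, with 9 fixed genes, and in the TCA and reference lists the 3 with the smallest p. The value of 1 reference gene is not reported here.

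Genes were filtered with filterByExpr, scaled by TMM (factors 0.868 to 1.10) and tested with edgeR 4.0.16 (R 4.3.3; glmQLFit with robust estimation, glmQLFTest), two-sided, RB-1 against DMSO, with 2 residual degrees of freedom. The standard error is the log2 fold change divided by the square root of F. Replicate libraries differed far beyond sampling noise (chi-square per degree of freedom 256.6 in DMSO and 128.0 in RB-1), and all were kept. In counts simulated for the 13612 genes of this comparison, 18.7% of genes changed 2-fold were recovered, and 84% of those changed 4-fold. Of the calls made there, 12.5% were false. The simulation changed far fewer genes than were called in the data. It also drew the noise of each gene independently, without the link to transcript length seen in these libraries. These shares may therefore not hold for the members. A member below the threshold was nevertheless not shown to be unchanged. Transcript lengths and GC content came from GENCODE 29 (first principal coding transcript). The length and GC correction was a smoothed offset per library (mgcv 1.9.3). Other alternatives were other scalings and filters, DESeq2 1.42.0, limma-voom (limma 3.58.1), the replicate block and leaving out each library.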

Additional observations from a re-analysis of the deposited data

How the results depend on the processing

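The count of enzyme genes that rose (4) stayed within 3 to 5 under every scaling, filter, tool and correction tried, with none lower, and ranged from 1 to 4 when 1 library was left out. The same 4 genes were called with each scaling, filter and tool, and library totals alone added ALDOA (log2 fold change 0.72, adjusted p = 0.0473 by edgeR). The median over the members went from 0.49 to 0.24 with the length and GC correction. Upper-quartile scaling and library totals alone put the median of all genes at 0.12 and 0.21, against 0.01. With library totals 1381 genes were lower, and the split was 2015 higher to 1381 lower; with upper-quartile scaling it was 2134 to 1815, against 1702 to 2149.

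Leaving out 1 library gave 383 to 1934 higher and 1091 to 2413 lower genes among all tested, 3 to 12 higher and 3 to 5 lower among the other pathway genes, 0 to 2 higher and 0 to 1 lower in the TCA cycle, and 0 to 4 higher and 0 to 3 lower among the reference genes. The TCA cycle had 2 higher and 1 lower with upper-quartile scaling, 1 lower with library totals, and 2 higher and 4 lower with the length and GC correction, which gave 2 higher reference genes.

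With the replicate number as a block, 4 members were higher and none lower, as without it; of the enzyme, other pathway and regulator genes named, the block changed the call of MYC alone (1.03, adjusted p = 0.0469; 1.02 and 0.140 with the numbers crossed). With the block and the length and GC correction together, 4 members were higher (HK2 in place of TPI1), 2 TCA genes were higher and 4 lower, and 2 reference genes were higher. The deviations of same-numbered libraries were weakly and negatively correlated (-0.14 over 11480 genes), and a crossed pairing, chosen after seeing the data, gave 4 higher members. The labels do not say that a number marks a shared batch. Depth bears most on scarce genes such as LDHD, with 29 and 20 counts in DMSO.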
